A study of Mus musculus with 16 samples.

Results

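The regions described here are the 1175 microRNA gene intervals among the 37255 gene intervals counted in an ATAC-seq study of mouse retinal ganglion cells. They were chosen by name and length alone, as every interval whose name begins with Mir and a digit or with Mirlet7 and whose span is under 1000 bp. Of 1185 such names, 10 were left out for their length, all of them host genes such as Mir155hg at 2223 bp, the shortest left out, while the longest interval kept spanned 139 bp. Spans ran from 39 to 139 bp with a median of 81 bp. No measured value entered the choice.

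ATAC-seq inserts sequencing adapters into accessible DNA with a transposase, so that read density follows chromatin opening. Each library was made from about 15000 to 50000 retinal ganglion cells, the neurons whose axons form the optic nerve, sorted by flow cytometry out of eyes of female mice. In the EAE groups the mice were given experimental autoimmune encephalomyelitis (EAE), an immune attack on myelin that can reach the optic nerve, at 7 to 8 weeks of age. There were 5 naive libraries, whose treatment label is Control, and 11 EAE libraries, which divide into 4 presymptomatic, 3 onset and 4 peak libraries. No genotype or allele is given in the labels, and the age at collection and the immunogen are not given either. Whether each library is a different animal is not in the labels, and p-values therefore reflect library-to-library spread, some of it possibly technical.

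For a gene this short the deposited count covers a window of 2000 bp less the span, centred on the gene. The windows of the 1175 intervals were 1861 to 1961 bp long with a median of 1919 bp, of which about 919 bp lay on each side of the hairpin. A value therefore describes the neighbourhood of a microRNA gene and not the hairpin itself. Each window was counted on its own. Among 27 pairs of neighbours whose windows shared at least 1800 bp, the lower mean count was 0.990 of the higher (median), so microRNAs of a tight cluster report the same reads. Merging overlapping windows gave 966 loci, 87 of which held several members, up to 20, and together 296 members. Levels are given as density, meaning reads per kb of window per M (mega) nuclear reads in intervals. The level of a member is the mean of its 4 stage means.

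MicroRNAs are short RNAs that Argonaute proteins carry to matching sites in messenger RNAs, where they repress translation and speed decay. The match is set mainly by the seed, the bases next to the 5′ end of the mature strand. They are cut from hairpins in longer primary transcripts, whose promoters may lie close to the hairpin, far upstream, or at the start of a host gene. Neurons are known for miR-9, miR-124, miR-128, miR-129 and the activity-induced miR-132 and miR-212. Photoreceptors and other sensory cells are known for the cluster of miR-183, miR-96 and miR-182, and pigment epithelium for miR-204 and miR-211.

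The sequences below belong to the neuronal, sensory and stress-related microRNAs that the results turn on. They are RefSeq mature strands of build GRCm38.p6, written 5′ to 3′, with the seed (bases 2 to 8) in capitals.
miR-9-5p (Mir9-1, Mir9-2 and Mir9-3): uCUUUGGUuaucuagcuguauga
miR-128-3p (Mir128-1 and Mir128-2): uCACAGUGaaccggucucuuu
miR-129-5p (Mir129-1 and Mir129-2): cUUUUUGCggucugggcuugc
miR-137-3p (Mir137): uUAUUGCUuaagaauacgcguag
miR-132-3p (Mir132): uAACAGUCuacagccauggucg
miR-212-3p (Mir212): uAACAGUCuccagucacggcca
miR-183-5p (Mir183): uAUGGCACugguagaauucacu
miR-96-5p (Mir96): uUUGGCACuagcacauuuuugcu
miR-182-5p (Mir182): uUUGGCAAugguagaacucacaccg
let-7i-5p (Mirlet7i): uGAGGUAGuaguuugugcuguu
miR-210-3p (Mir210): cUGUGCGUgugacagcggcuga
The 3 genes of miR-9, and the pairs of genes for miR-128 and miR-129, encode identical mature strands, while miR-132 and miR-212 share a seed and differ further along. RefSeq held a hairpin for 958 of the 1175 members, and the deposited chromosome, start, end and strand equalled that of GRCm38.p6 for 958 of them. No label or header names the build of the deposited table. The 958 hairpins give 1661 mature strands with 1339 distinct seeds.

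Facts of the libraries bear on every value below. Naive libraries averaged 7.92 ± 4.24 M nuclear reads in intervals (SD, n = 5) and presymptomatic ones 6.37 ± 2.81 M (SD, n = 4). Onset libraries averaged 9.70 ± 5.42 M (SD, n = 3) and peak libraries 3.03 ± 0.978 M (SD, n = 4). Mitochondrial intervals took 8.36% of all interval reads in onset replicate 3 and 34.4% to 64.7% in the other libraries. Density leaves these reads out, while total count scaling, an alternative used below, includes them. The median member drew 2 to 16 reads per library, and 1 density unit over a median window stood for 3.02 to 29.0 reads. Even numbers made up 61.4% to 78.2% of the non-zero member counts of a library, and the sources used here do not say whether both mates of a pair were counted, so floors and intervals cover counting error only and may be too narrow. Windows of olfactory and vomeronasal receptor genes, which retinal neurons are not known to use, took 0.201% to 0.580% of nuclear reads in naive, 0.310% to 0.405% in presymptomatic, 0.212% to 0.289% in onset and 0.246% to 0.508% in peak libraries. Marker genes of retinal ganglion cells had a median density of 0.991 and those of rods 1.90, against 0.626 over all nuclear intervals, and none of either list was at 0. The summed density of the 10 rod markers was 72.8 in onset replicate 3 and 10.3 to 30.7 in the other libraries. The summed density of the 14 ganglion cell markers was 45.2 in peak replicate 2 and 12.7 to 21.5 in the other libraries.

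Most microRNA neighbourhoods lay near the median over all nuclear intervals, and a small number stood far above it. The median density of the 1175 members was 0.600, against 0.626 over 35258 nuclear intervals of which at least 500 bp were counted and 0.677 over receptor windows. The middle of the members lay between 0.406 and 1.04 (quartiles), the 90th percentile was 3.12, and the highest member reached 139.5. Densities over 10 were found for 41 members, which is 3.49% of them, against 6.20% of the 2289 other nuclear intervals under 1000 bp and 0.859% of all nuclear intervals. The last share is not a like comparison. Genes longer than 2000 bp were counted without the 1000 bp at each end, so their own starts are left out, while a microRNA window can hold a start. The 20 densest loci held 32.4% of all member reads. At the other end, 4 members (Mir467a-5, Mir466b-5, Mir669p-1 and Mir465b-1) had no read in any library. They belong to families of near-identical copies, and since the handling of reads with several alignments is not given, their level is uncertain. The plot of density by rank shows the steep head and the long flat body of this distribution.

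**Figure D1:**
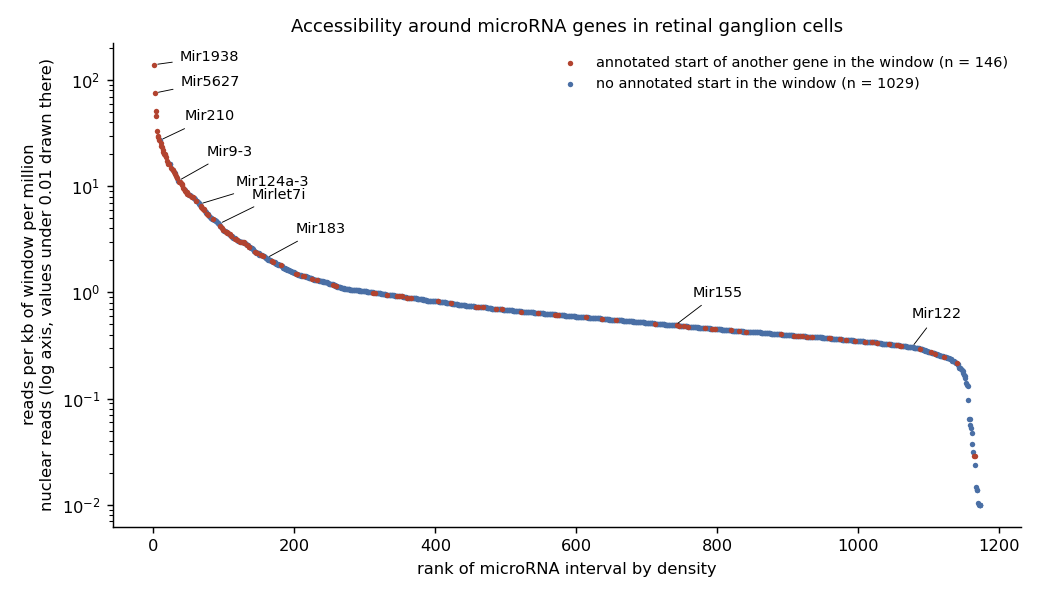
Density of each of the 1175 microRNA intervals (vertical axis, reads per kb of window per M nuclear reads, log scale) against its rank, in red where the window holds the annotated start of another gene and in blue where it does not. The red points lead the ranking from Mir1938 at 139.5, and Mir210 at 27.0 is the densest of the blue points.

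Starts of other genes were common at the head of the ranking. An annotated start of another gene lay in the window of 146 members (12.4%), and these had a median density of 2.31, against 0.573 for the 1029 members with no such start. Of the 41 members over a density of 10, 33 had a start in the window, and so did 18 of the 20 densest loci. By distance to the nearest start, the median was 2.75 at 0 to 250 bp, 3.12 at 250 to 500 bp, 1.15 at 500 to 750 bp and 2.42 at 750 to 1000 bp. It was 0.739 at 1000 to 1500 bp, 0.451 at 1500 to 2000 bp and 0.49 at 2000 to 5000 bp, and 0.705 at over 50000 bp. A start alone did not bring a high density. Of the 14 microRNAs listed for embryonic stem cells, from the Mir290 and Mir302 clusters, 11 had a start in the window and the list's median was 0.366.

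**Figure D2:**
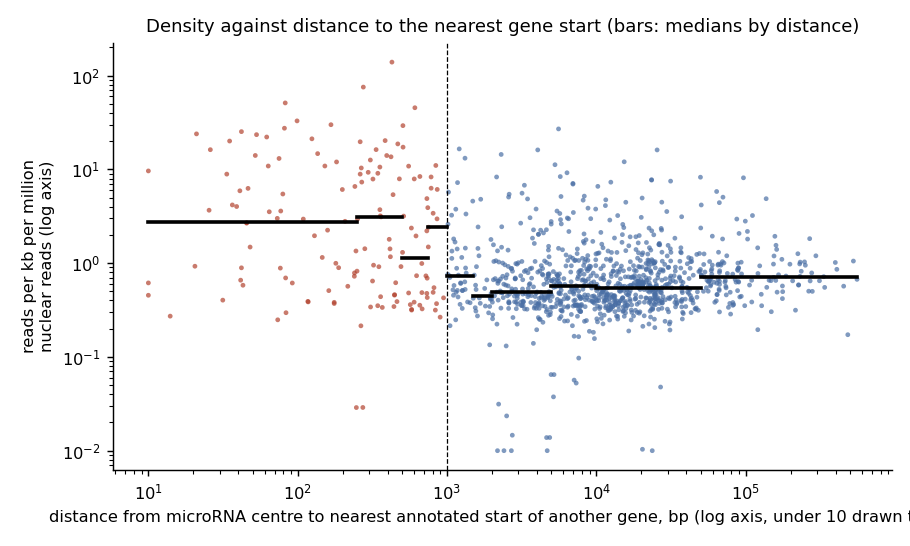
Density of each microRNA interval (vertical axis, log scale) against the distance from its centre to the nearest annotated start of another gene (horizontal axis, bp, log scale), with black bars for the median of each distance range. Medians are 1.15 to 3.12 within 1000 bp, the dashed line, and 0.451 to 0.739 in the ranges beyond it.

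Among the 896 members inside another gene's interval, 759 lay on that gene's strand and 137 on the other. Those inside a gene but with no start in the window had a median density of 0.552, against 0.663 for those outside other genes. The density of a member without a start was a median 0.834 of its host gene's own density over 774 members (quartiles 0.599 and 1.12), and 42 members exceeded their host 3 times or more. An intronic microRNA window was thus for the most part at the level of the gene body around it.

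Mir1938, the densest member, lies within Ifrd1, a transcriptional co-regulator gene, at chr12:40222712-40222811 on the minus strand, 427.5 bp from the annotated Ifrd1 start. Its density was 117.6, 126.7, 111.4, 74.2 and 183.7 in the 5 naive libraries, 204.5, 138.3, 174.7 and 137.2 in the presymptomatic ones, 170.0, 187.5 and 134.5 at onset and 68.8, 133.3, 101.1 and 127.9 at peak. The lowest of these 16 values was still far over the 1.66 of the trimmed gene body of Ifrd1, which leaves out the start that the Mir1938 window holds. The naive range overlapped that of each EAE stage, while the highest peak value lay just below the lowest presymptomatic and onset values. How many of all intervals had such a gap was not counted.

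Mir5627 ranked next with 75.6, 275.0 bp from the start of Dnajb9, which encodes a co-chaperone of the endoplasmic reticulum. It gave 70.4, 80.2, 62.2, 46.5 and 101.0 in naive libraries, 90.3, 68.3, 91.7 and 72.4 in presymptomatic, 94.8, 97.7 and 72.6 in onset and 47.0, 78.7, 44.1 and 74.6 in peak libraries. All 4 stages overlapped here too.

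The other leading loci with a start in the window were spread over protein-coding and unnamed genes. Mir5620 had 51.2 at Clcn4, a chloride and proton exchanger, Mir707 had 45.5 at Akt1s1, an inhibitor of the mTORC1 kinase complex, and Mir8098 had 32.9 at Wdfy2. Mir8112 at Krcc1 had 30.0, Mir3569 at Gm32082 had 29.3, and Mir1945 at Gspt1, a translation termination factor, had 27.5. They were followed by Mir7238 at Ankrd10 with 25.3, Mir344g at A330076H08Rik with 23.9, Mir5133 at Glce with 23.5, Mir7666 at Micu3 with 22.2, Mir3091 at Rps21 with 21.2 and Mir484 at Marf1 with 20.3. The remaining loci with a start were Mir760 at Gm40190 with 20.1, Mir1956 at Eif4e, the cap-binding translation factor, with 19.7, Mir7036b at Add1 with 18.7 and Mir6392 at Pnpla3 with 17.3. Mir210 and Mir713 (16.6) completed the 20 densest without a start in the window, and the 21st locus had 16.3.

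Promoter sequences are shown for 3 of these starts because they lie in the windows of 3 of the densest loci and differ in CpG content. They are RefSeq promoters of GRCm38.p6, 250 bases before to 50 after the start, 5′ to 3′ along the gene, with every CG in capitals.
Ifrd1, chr12:40223140-40223439, minus strand, in the window of Mir1938: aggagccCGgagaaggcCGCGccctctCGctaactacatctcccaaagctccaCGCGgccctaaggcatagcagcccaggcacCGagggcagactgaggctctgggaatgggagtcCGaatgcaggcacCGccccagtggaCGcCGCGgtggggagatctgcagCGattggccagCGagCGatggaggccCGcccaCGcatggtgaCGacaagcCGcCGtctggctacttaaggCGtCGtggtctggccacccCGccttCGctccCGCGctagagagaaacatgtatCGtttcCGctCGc
Dnajb9, chr12:44210019-44210318, minus strand, in the window of Mir5627: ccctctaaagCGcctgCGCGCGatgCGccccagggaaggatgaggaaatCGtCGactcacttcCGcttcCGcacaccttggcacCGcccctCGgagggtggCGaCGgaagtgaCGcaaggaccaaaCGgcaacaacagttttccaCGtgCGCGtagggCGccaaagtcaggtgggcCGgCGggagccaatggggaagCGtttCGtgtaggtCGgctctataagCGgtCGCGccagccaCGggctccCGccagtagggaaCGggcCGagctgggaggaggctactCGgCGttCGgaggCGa
A330076H08Rik, chr7:61982306-61982605, minus strand, in the window of Mir344g: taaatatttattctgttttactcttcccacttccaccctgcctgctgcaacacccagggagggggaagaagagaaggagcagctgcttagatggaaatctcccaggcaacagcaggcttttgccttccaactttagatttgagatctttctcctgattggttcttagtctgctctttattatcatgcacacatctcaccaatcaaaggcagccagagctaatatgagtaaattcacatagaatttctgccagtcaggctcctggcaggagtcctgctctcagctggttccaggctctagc
The Ifrd1 promoter holds 29 CG and that of Dnajb9 holds 35, while that of A330076H08Rik holds 0. Promoters were found for 15 of the 20 densest loci, 22 in all, and they held 0 to 41 CG with a median of 25.5, against a median of 7 over 32836 mouse promoters of the same 300 bases. At least 20 CG were present in 15 of the 22, against 26.5% of all promoters. The pentamer CCAAT, on either strand, was in 10 of the 22 promoters (45.5%), those shown for Ifrd1, Dnajb9 and A330076H08Rik among them, and in 37.4% of all promoters. The hairpins of the 100 densest members had a median GC content of 59.8% (84 with a hairpin), against 50.9% for the rest (874), and across the 958 hairpins GC content and density had a Spearman rho of 0.172, a description across members that share loci and libraries.

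Among members with no start in the window, Mir210 was the densest. Mir210, at chr7:141221384-141221493 on the minus strand and 5578.5 bp from the nearest start (Rassf7), ranked 9 overall with 27.0. Its product is the best-known microRNA of the response to low oxygen. It had 22.6, 29.5, 14.4, 14.5 and 38.2 in naive libraries, 27.3, 20.1, 24.5 and 17.3 in presymptomatic, 34.5, 36.5 and 36.8 in onset and 23.9, 29.2, 15.8 and 35.6 in peak libraries. The 3 onset values were close together and lay within the naive range.

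The next densest without a start, chosen after their values were seen, were Mir713 at 16.6, Mir1895 in Cxxc4 at 16.1, Mir1893 in Epc1 at 16.1, Mir6976 in Srf at 14.4, Mir6236 at 13.2 and Mir8096 at 12.1. Mir9-3 and Mir9-2 came next.

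MicroRNAs known from neurons were the list with the highest median. The 28 intervals of this list had a median density of 1.43. Of these, 15 (53.6%) were among the 293 densest of the 1175 members and 11 among the densest 100. Those 293 also held 9 of 15 stress and p53 intervals (60%), 5 of 12 sensory and retinal ones (41.7%) and 6 of 18 of let-7 and its neighbours (33.3%). Of members outside every list they held 27.9%. Only 4 of the 28 had a start of another gene in the window. The other 12 lists had medians of 1.23 for stress and p53 microRNAs (15 intervals), 0.917 for the mir-17-92 clusters of dividing cells (15), 0.806 for the X-linked testis cluster (22), 0.698 for sensory and retinal microRNAs (12), 0.606 for the imprinted Dlk1-Dio3 cluster (56), 0.566 for let-7 and its neighbours (18), 0.531 for vascular and muscle (15), 0.509 for the repeat-derived Mir297, Mir466, Mir467 and Mir669 families (81), 0.507 for immune cells (12), 0.380 for the Hox clusters (6), 0.377 for liver and epithelium (18) and 0.366 for pluripotent cells (14). Members outside every list had 0.623 (863). No test is given for these medians, since members of a cluster share reads.

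**Figure D3:**
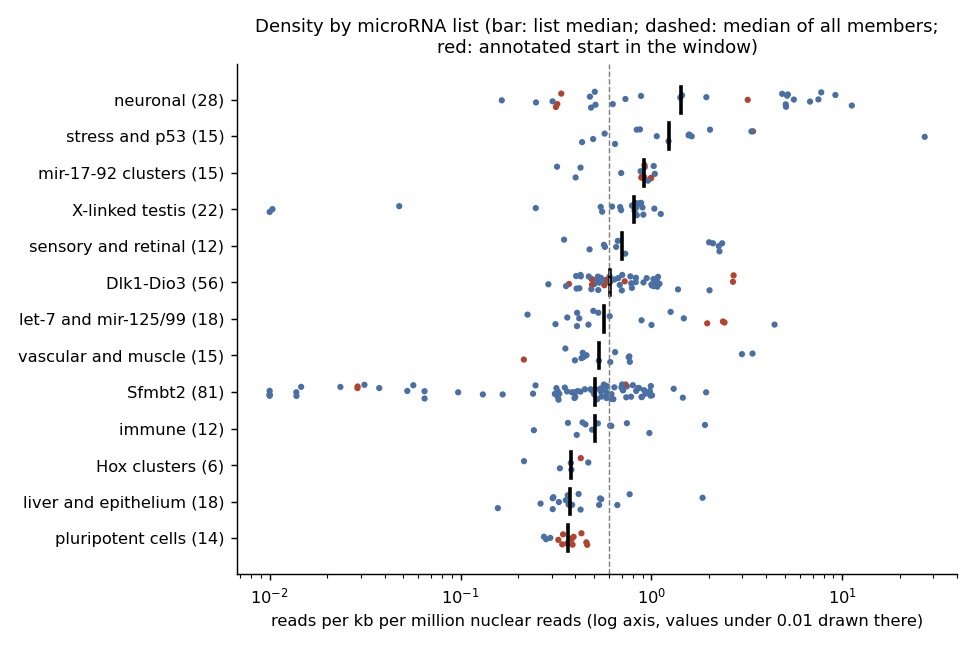
Density of the members of 13 microRNA lists (horizontal axis, log scale; number of intervals in brackets), each point a member, red where another gene's start lies in the window, with black bars for list medians and a dashed line at the median of all members, 0.600. Neuronal microRNAs have the highest median at 1.43 and pluripotent ones the lowest at 0.366.

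Within the neuronal list the values split widely. Mir9-3, 5282.5 bp from the nearest annotated start and inside its host transcript Mir9-3hg at chr7:79505264-79505353, ranked 35 with 11.2. It had 10.4, 13.6, 6.84, 6.86 and 19.0 in naive libraries, 12.2, 9.55, 13.04 and 7.52 in presymptomatic, 17.3, 15.5 and 9.32 in onset and 11.3, 7.35, 7.58 and 9.63 in peak libraries. Mir9-2, at chr13:83738814-83738885, ranked 44 with 9.21 and ran from 4.41 to 15.3 over the 16 libraries. Every library thus placed both genes well over the median member.

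Mir128-2 had 7.502, Mir129-2 7.76 and Mir129-1 5.19. The 3 genes of miR-124, the most abundant microRNA of mature neurons, had 6.78 for Mir124a-3, 5.14 for Mir124a-2 and 5.07 for Mir124a-1. Mir212 had 5.58, Mir132, whose window overlaps it, 4.85, and Mir137 5.06. At the low end of the list were Mir7-1 with 0.165, Mir138-1 with 0.249 and Mir218-1 with 0.304. Mir7-1 lies inside Hnrnpk and was at 0 in naive replicates 1 and 4 and in 5 other libraries.

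Windows around genes that encode the same mature strand could differ strongly in density. Over the 16 libraries, 29 pairs of such genes were compared by a two-sided exact sign-flip permutation test on log2 density, with p-values adjusted over the 29 pairs. The smallest p this test can give is 3.05e-05. The 7 pairs of Mir465 copies on the X chromosome are not counted as results, since their near-identical sequence makes the counts uncertain and 3 of them set a copy against one with no read in any library. Of the other 22 pairs, 13 had an adjusted p under 0.05, and 12 had one when adjusted over these 22 alone. These pairs are not all separate observations. The 3 genes of miR-9 were compared with each other. The Mir181a and Mir181b pairs share reads, with 1736 bp common to the windows of Mir181a-1 and Mir181b-1. Mir9-3 at 11.2 exceeded Mir9-1, the copy on chromosome 3, at 0.883 in 16 of 16 libraries, by 3.82 ± 1.24 on the log2 scale (SD, n = 16, exact permutation, adjusted p = 0.000177). Mir9-2 exceeded Mir9-1 by 3.53 ± 1.20 with the same count and the same adjusted p in this exact test (SD, n = 16). The miR-9-5p strand printed above is thus encoded by 3 genes whose windows had unequal densities, and Mir9-1 lies 1160 bp from the start of Gm3764. The window of Mir3093, which shares 1484 bp with that of Mir9-1, drew a mean of 28.9 reads per library, against 11.1 for Mir9-1. The Mir9-1 level therefore depends on where its window ends, and other window placements were not tested for any pair.

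The same held for other microRNAs of the lists. Mir128-2 at 7.502, inside Arpp21, exceeded Mir128-1 at 0.477, inside R3hdm1, in 16 of 16 libraries by 4.12 ± 1.37 (log2, SD, n = 16, exact permutation, adjusted p = 0.000177). Mir7-2 at 1.42 exceeded Mir7-1 at 0.165 by 2.67 ± 1.37, and Mir218-2 at 1.94 in Slit3 exceeded Mir218-1 at 0.304 in Slit2 by 2.65 ± 1.52 (log2, SD, n = 16 each, exact permutation, adjusted p = 0.000177 and 0.000221). Mir219a-1 at 3.20 exceeded Mir219a-2 at 0.321 by 3.20 ± 1.55, in 15 of 16 libraries (log2, SD, n = 16, exact permutation, adjusted p = 0.000221). The host gene of Mir128-2 encodes a cAMP-regulated phosphoprotein of neurons, and Slit2 and Slit3 encode axon guidance ligands.

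Smaller gaps were seen for Mir129-2 over Mir129-1, 0.53 ± 0.48 in 15 of 16 libraries (log2, SD, n = 16, exact permutation, adjusted p = 0.00248), and for Mir181a-1 over Mir181a-2, 1.41 ± 1.55 in 14 of 16 (exact permutation, n = 16, adjusted p = 0.00679). For 9 of the 22 pairs the test did not pass, among them Mir125b-1 and Mir125b-2 at 1.48 and 1.26, with a log2 difference of 0.15 ± 1.15 (SD, n = 16, exact permutation, adjusted p = 0.746), and Mir24-1 and Mir24-2 at 2.03 and 1.58 with 0.41 ± 0.83 (SD, n = 16, exact permutation, adjusted p = 0.0960). A spread of this size does not show that such pairs are alike.

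Sensory and retinal microRNAs were less open than the neuronal leaders. Mir181b-1 had 2.35 and Mir181a-1 2.25, and their windows overlap. In the sensory cluster on chromosome 6, Mir96 had 2.27, Mir183 had 2.10 and Mir182, whose window does not overlap theirs, 0.667. Mir184 had 2.01. Mir204, inside Trpm3, had 0.571 and Mir211, inside Trpm1, 0.564, both near the median of all members.

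The windows of Mir183 and Mir96 nearly coincide, and both varied widely between libraries. Mir183 had 1.55, 2.19, 0.197, 1.23 and 0.753 in naive libraries, 1.27, 1.62, 1.28 and 6.05 in presymptomatic, 2.97, 0.966 and 6.13 in onset and 0.612, 0, 1.35 and 3.29 in peak libraries. The highest value was that of onset replicate 3, with 117 reads, which also had the highest rod marker sum of 72.8, and the next was presymptomatic replicate 4 with 26 reads and a rod marker sum of 23.6. Onset replicate 2 and naive replicate 4 had higher rod marker sums than presymptomatic replicate 4, 29.4 and 25.5, with Mir183 at 0.966 and 1.23. The library with no read was peak replicate 2, which had the highest ganglion cell marker sum of 45.2 and a rod marker sum of 12.7. The part of photoreceptor chromatin in the Mir183 values was not tested, and a higher share of a cell type cannot be told apart from more open chromatin in sorted bulk samples. The onset over naive difference of Mir183 was 1.36 ± 0.72 (log2, edgeR, SE), with an adjusted p of 0.972, and it was 0.68 without onset replicate 3.

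Microglial and lymphocyte markers had median densities of 0.415 and 0.402. MicroRNAs of immune cells were likewise low as a group, and 1 of 12 was among the 293 densest members, Mir326 inside Arrb1 with 1.91. Mir155, induced in activated immune cells, had 0.489, the myeloid Mir223 had 0.977, Mir142 had 0.608 and Mir21a 0.242. Among stress and p53 microRNAs, Mir34c had 3.41 and Mir34b 3.35 inside Btg4, while Mir34a, a direct p53 target, had 0.569. Of vascular and muscle microRNAs Mir145a was densest with 3.39, and of the let-7 group Mirlet7i with 4.42.

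No microRNA interval passed the test in any comparison of stages. Of the 1175 members, 788 had enough reads to be tested (122 with a start in the window and 666 without) and 387 did not, the untested ones having a median density of 0.362. The edgeR quasi-likelihood test, adjusted by Benjamini-Hochberg over 29902 intervals, called 0 members in each of the 6 comparisons and in the F test over the 3 contrasts with naive. It also called 0 intervals of any kind, a percentage of 0 in each comparison. The smallest adjusted p of a member was 0.737 for peak over onset and 0.972 for onset over naive, and was higher in the other 4 comparisons. DESeq2 called 0 members as well, and 0 to 5 intervals of any kind per comparison.

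At an unadjusted p under 0.05 by edgeR members are counted here beside the share of all intervals. For presymptomatic over naive 10 members (1.27%) were below it, against 1.16% of all intervals, with 6 higher (0.761%, against 0.351%) and 4 lower (0.508%, against 0.813%). For onset over naive there were 25 (3.17%, against 4.95%), with 13 higher (1.65%, against 1.57%) and 12 lower (1.52%, against 3.38%). For peak over naive there were 27 (3.43%, against 3.61%), with 8 higher (1.02%, against 1.8%) and 19 lower (2.41%, against 1.81%). For onset over presymptomatic there were 36 (4.57%, against 4.13%), with 32 higher (4.06%, against 2.41%) and 4 lower (0.508%, against 1.72%). For peak over presymptomatic there were 32 (4.06%, against 3.41%), with 9 higher (1.14%, against 2.21%) and 23 lower (2.92%, against 1.2%). For peak over onset there were 61 (7.74%, against 6.65%), with 14 higher (1.78%, against 2.99%) and 47 lower (5.96%, against 3.66%). The F test over the contrasts with naive gave 41 (5.2%, against 3.16%). DESeq2 gave 18, 38, 39, 52, 38, 72 and 52 members in the same order. The share of all intervals under that threshold by DESeq2 was not counted, so these counts have no background to be read against. The 3 comparisons with naive share the naive libraries and the 3 between stages share theirs.

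Log2 fold changes of the tested members had a median of -0.03 for presymptomatic over naive, 0.05 for onset over naive and -0.04 for peak over naive, against -0.06, -0.01 and -0.03 over all intervals. It was 0.01 for onset over presymptomatic, 0.01 for peak over presymptomatic and -0.04 for peak over onset, against 0.03 for all intervals in each. The standard error of a member's fold change had a median of 0.76 to 0.89 over the 6 comparisons, against 0.38 to 0.44 for all intervals, since windows of about 2 kb hold few reads. On simulated counts for onset over naive, the test recovered 6 of 100 intervals changed by 1 log2 unit and 56 of 100 changed by 2 among 29902, with 0 false calls. The changed intervals were drawn at random from all 29902, of which 788 were members. Recovery for members alone, with their larger standard errors, was not measured.

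Members took 0.397 ± 0.0777% of nuclear reads in naive libraries (SD, n = 5) and 0.401 ± 0.0431% in presymptomatic ones (SD, n = 4). They took 0.484 ± 0.0286% at onset (SD, n = 3) and 0.372 ± 0.0435% at peak (SD, n = 4). The naive libraries ran from 0.320% to 0.507% and the 3 onset libraries from 0.452% to 0.507%, with onset replicate 3 just above the highest naive library. Pooled over members with a start, density was 9.42 ± 0.385 at onset (SD, n = 3), with values of 8.98 to 9.65, against 7.15 ± 2.23 in naive libraries (SD, n = 5), with values of 5.06 to 10.6. It ran from 6.16 to 8.32 in presymptomatic and from 4.87 to 7.52 in peak libraries. Over members without a start it averaged 1.11 at onset, 0.998 in presymptomatic, 1.00 in peak and 0.998 in naive libraries.

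Members with and without a start accordingly had different medians at onset, with none called. For onset over naive, 94 of the 122 with a start were higher and their log2 fold changes had a median of 0.38, against -0.03 for members without a start and -0.01 for all intervals. For peak over onset, 94 of 122 were lower with a median of -0.47. An unadjusted p under 0.05 by edgeR was found for 24 of these 122, all of them lower. Lower at that threshold were also 23 of 666 members without a start, 80 of 916 other intervals under 1000 bp and 3.66% of all intervals. For peak over naive 84 of 122 were lower with a median of -0.15, which was -0.36 without peak replicate 2 and -0.02 without naive replicate 5, where 58 of 119 were higher. The receptor share of nuclear reads was 0.212% to 0.289% in the 3 onset libraries and over 0.5% in naive replicates 3 and 4 and peak replicate 3. It was 0.201% to 0.279% in naive replicates 1, 2 and 5 and 0.246% to 0.295% in peak replicates 1, 2 and 4. Pooled density over members with a start was 7.06, 7.73 and 10.6 in these naive libraries and 5.45, 7.52 and 7.01 in these peak libraries. Without naive replicates 3 and 4 and peak replicate 3, a setting chosen after the data were seen, the onset over naive median of members with a start was 0.21. With the receptor share as a covariate, 84 of 122 were higher for onset over naive with a median of 0.22, and the peak over onset median was -0.31. The gap between members with and without a start was smaller among members with more reads. With a minimum count of 30, which left 181 members, the onset over naive median was 0.39 with a start and 0.19 without. All intervals had -0.01. For peak over onset these medians were -0.56 and -0.42, against 0.03 for all intervals.

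**Figure D4:**
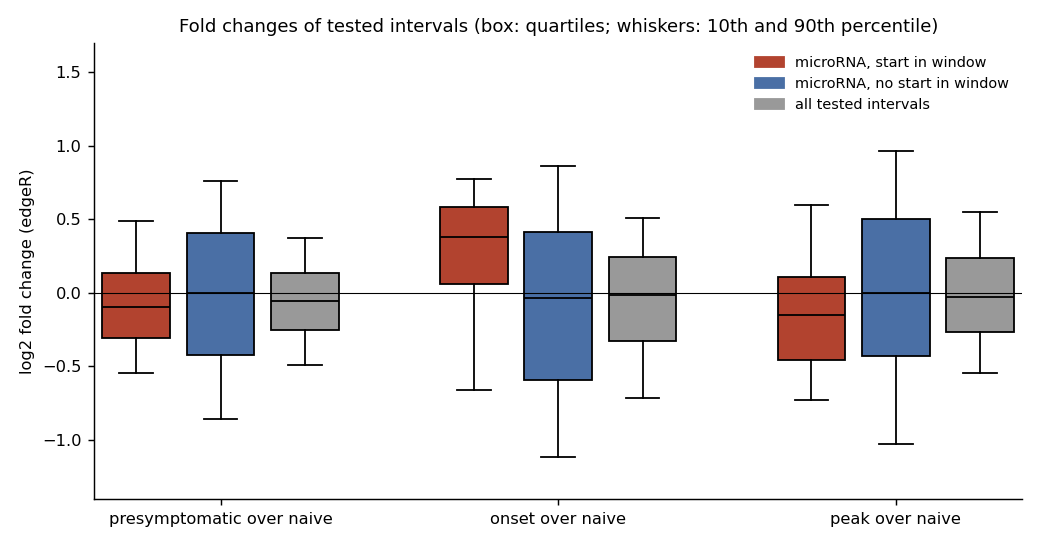
Log2 fold changes by edgeR of 122 tested microRNA intervals with a start in the window (red), 666 without (blue) and all 29902 tested intervals (grey), for each EAE stage over naive, with boxes at the quartiles and whiskers at the 10th and 90th percentiles. The red box stands at a median of 0.38 for onset over naive, and the other medians lie between -0.15 and 0.00.

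Lists differed in direction at onset, with no member called. Of the repeat-derived Mir297, Mir466, Mir467 and Mir669 intervals, 71 of which lie inside Sfmbt2, 37 of 40 tested were lower at onset than in naive libraries (median -0.99 on the log2 scale), and so were 16 of 16 tested of the X-linked testis cluster (median -0.97). Members of these clusters share reads and near-identical sequence. Under total count scaling, which moved the median of all intervals to 0.60, 23 of the 40 were lower with a median of -0.11 and 10 of the 16 with a median of -0.24. The list for pluripotent cells, the sparsest by median, had 6 of 6 tested higher than in naive libraries at each EAE stage. Its medians were 2.20 for presymptomatic, 1.32 for onset and 1.29 for peak. All 6 were lower at onset than in presymptomatic libraries, with a median of -0.83. The intervals of this list form 2 loci of shared reads, so the 6 are not separate observations. With the receptor share as a covariate, the counts of the repeat-derived and X-linked lists at onset became 26 of 40 lower with a median of -0.45 and 5 of 16 lower with a median of 0.19. Without the 3 libraries of highest receptor share they were 21 of 29 lower and 4 of 15 lower. Of the neuronal list, 17 of 21 were higher at onset than in naive libraries with a median of 0.25, and 10 of 18 without those 3 libraries with a median of 0.02. At peak 15 of the 21 were lower than in naive libraries, with a median of -0.36, and 0 of the 21 had an unadjusted p under 0.05 by edgeR in any of the 3 comparisons with naive.

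The largest named member differences rest on few reads. For peak over naive the listed member of smallest p was Mirlet7i, a let-7 gene at chr10:122985640-122985724 with no gene start within 66587 bp of its centre. Its density was 3.55, 1.69, 1.21 and 2.65 in peak libraries, from 8 to 23 reads, against 5.03, 4.52, 3.24, 3.42 and 8.88 in naive libraries, from 33 to 131 reads. It was 4.86, 3.72, 2.85 and 1.87 in presymptomatic and 8.36, 3.96 and 8.87 in onset libraries. The peak mean of 2.27 ± 1.04 (SD, n = 4) was below the naive mean of 5.02 ± 2.28 (SD, n = 5), but 1 peak library lay above 2 naive ones. The edgeR log2 fold change was -1.24 ± 0.42 (SE), with an unadjusted p of 0.00594 and an adjusted p of 1.00.

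**Figure D5:**
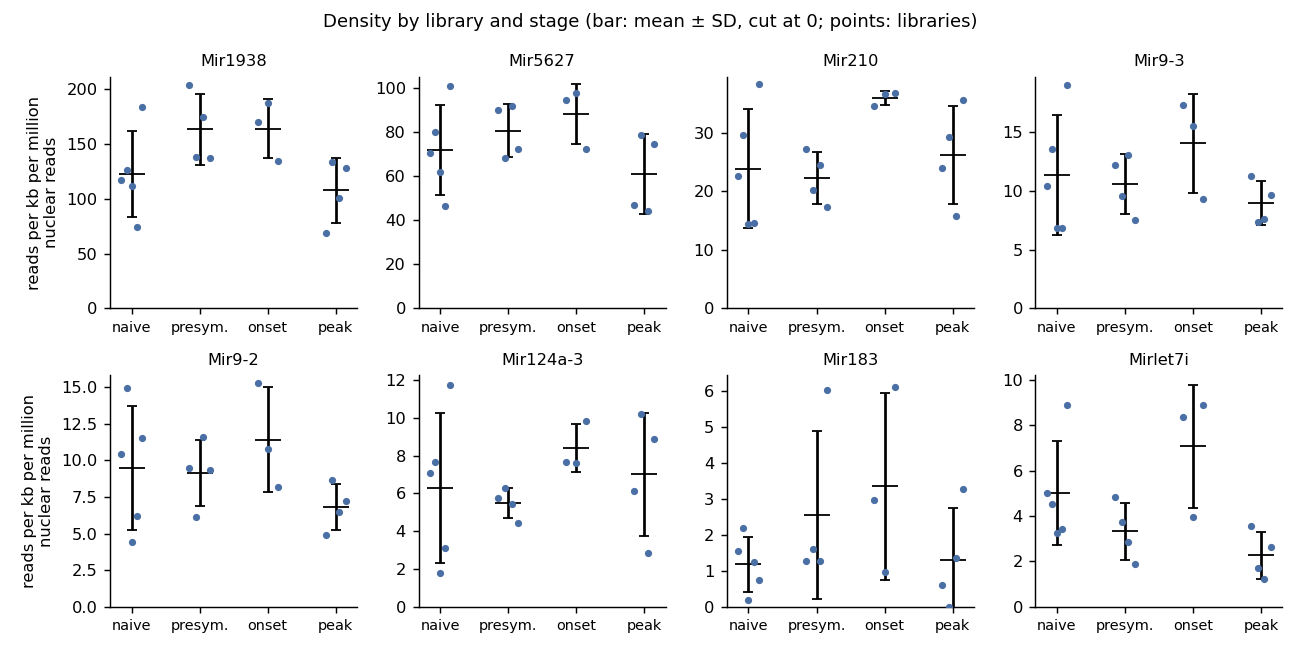
Density of 8 microRNA intervals by library (points) and stage, with the mean and SD as bars (vertical axes linear from 0, scaled per panel; naive n = 5, presymptomatic n = 4, onset n = 3, peak n = 4). The naive range overlaps that of each EAE stage in each panel, and Mirlet7i has 1.21 to 3.55 at peak against 3.24 to 8.88 in naive libraries.

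The lowest p-values of members for peak over onset belonged to Mir7655 on chromosome 2, inside Gm39762 on the other strand, and Mir6897, inside Uggt1, a glycoprotein quality control gene. Mir7655 had 4.41, 3.62, 2.69 and 10.1 at peak, against 13.2, 10.4 and 17.3 at onset, a log2 fold change of -1.44 ± 0.39 (SE). Mir6897 had 1.52, 0.558, 1.05 and 0.982 at peak, against 4.93, 4.09 and 3.44 at onset, -2.01 ± 0.54 (SE). Peak and onset values did not overlap for either, by a narrow gap of 10.1 against 10.4 for Mir7655, and the adjusted p was 0.737 for both (edgeR). Both members were picked by their p, and the share of all intervals without such overlap was not counted. Mir6897 averaged 1.03 ± 0.395 at peak (SD, n = 4), against 2.96 ± 1.20 in naive libraries (SD, n = 5), where it ran from 1.13 to 4.23.

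For onset over naive the members of smallest p on the higher side were Mir5135 with 4.28 ± 1.19 against 1.80 ± 0.729, Mir6953 in Grina with 8.35 ± 5.15 against 3.78 ± 1.08, Mir6928 in Atp6v0a1 with 5.81 ± 3.41 against 2.29 ± 1.56 and Mir1968 in Grtp1 with 8.33 ± 5.75 against 3.06 ± 1.52 (density, SD, n = 3 and 5). Without onset replicate 3 the last 3 fell to log2 fold changes of 0.53, 0.79 and 0.76, against 1.03, 1.26 and 1.35 with it. On the lower side were Mir467c with 0.0588 ± 0.0540 against 0.980 ± 0.668, Mir1298 in the serotonin receptor gene Htr2c with 0.271 ± 0.266 against 1.65 ± 0.933, Mir871 with 0.315 ± 0.380 against 1.43 ± 1.09 and Mir466d with 0.164 ± 0.146 against 0.898 ± 0.541. The onset totals behind these lower members were 4, 18, 20 and 12 reads over 3 libraries.

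For presymptomatic over naive, Mir5710 in Dnaja4, an Hsp40 co-chaperone gene, had the most reads of the 8 members of smallest p. It averaged 1.58 ± 1.21 in presymptomatic (SD, n = 4), against 3.41 ± 1.31 in naive libraries (SD, n = 5), with a log2 fold change of -1.03 ± 0.47 (SE, edgeR, adjusted p = 1.00). Mir1967, inside Urb2, had 0 reads in all 4 presymptomatic libraries, against 42 in the naive ones, which is at least 9.01-fold lower when 3 reads over the group are taken as the floor. Mir6365 and Mir702 were the others on the lower side, with 9 and 7 presymptomatic against 63 and 47 naive reads. Mir101b, Mir208a, Mir429 and Mir6917 were on the higher side with 25 to 46 presymptomatic against 8 to 25 naive reads. Mir208a lies in the heart myosin gene Myh6.

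For peak over naive, Mir6966 in Haghl had 0 peak against 50 naive reads, at least 5.10-fold lower, and Mir1898 in Zfr 0 against 34, at least 3.47-fold lower, on the same floor. Mir3470b in Gramd1c averaged 1.89 ± 0.403 at peak against 0.321 ± 0.149 in naive libraries (density, SD, n = 4 and 5) and Mir193a 2.07 ± 0.807 against 0.615 ± 0.388, with log2 fold changes of 2.44 ± 0.74 and 1.67 ± 0.65 (SE, edgeR, adjusted p = 1.00 for both). Peak values of Mir3470b did not overlap the naive ones, but it was picked by its p and the share of all intervals without such overlap was not counted.

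Between stages, Mir5710 averaged 5.73 ± 0.464 at onset (SD, n = 3) against 1.58 ± 1.21 in presymptomatic libraries (SD, n = 4), and its log2 fold change was 1.71 ± 0.52 (SE). Mir362 in Clcn5 had 0.256 ± 0.0541 at onset against 1.501 ± 0.781 in presymptomatic libraries, and Mir344d-3 had 1.46 ± 0.855 at peak against 5.33 ± 4.58 in presymptomatic libraries. Mir6347 had 2.55 ± 1.80 at peak against 0.317 ± 0.279 at onset. None of these passed the edgeR test after adjustment.

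The densest loci were largely shared between naive and all libraries. The 20 densest loci by naive libraries alone shared 18 with the 20 of all stages. Mir9-3 had log2 fold changes of -0.14 ± 0.31 for presymptomatic, 0.25 ± 0.33 for onset and -0.42 ± 0.32 for peak over naive (SE, edgeR), and Mir124a-3 -0.22 ± 0.40, 0.35 ± 0.42 and 0.09 ± 0.40. Mir210 had -0.14 ± 0.27, 0.52 ± 0.29 and 0.05 ± 0.27, and Mir1938 0.36 ± 0.24, 0.35 ± 0.26 and -0.25 ± 0.25. None of these differences passed the test after adjustment.

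By the F test over the 3 contrasts with naive, the tested members of smallest p in their lists were Mirlet7i, Mir467c, Mir145a, Mir194-1, Mir137, Mir871, Mir329, Mir210, Mir183, Mir290a, Mir18b and Mir142b, with an adjusted p of 1.00 for each (edgeR). Mir137 had 4.38 ± 0.438 in naive (SD, n = 5), 7.29 ± 1.83 in presymptomatic (SD, n = 4), 5.04 ± 1.02 at onset (SD, n = 3) and 3.51 ± 2.41 at peak (SD, n = 4). Its presymptomatic over naive log2 fold change was 0.68 ± 0.36 (SE, unadjusted p = 0.0729, adjusted p = 1.00, edgeR). No member of the Hox list had enough reads to be tested.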

How the data were processed

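ATAC-seq libraries of sorted retinal ganglion cells were processed by the authors with cutadapt, HISAT2 and HTSeq, per the submitters' processing notes. Their versions, the genome build, and the handling of duplicates, of reads with several alignments and of the transposase offset are not stated in the labels or notes. The authors deposited a table of whole-number read counts and RPKM values per gene interval. The deposited RPKM was used to recover the counted length, which equals the absolute difference between the span and 2000 bp. Tests used the deposited counts. Nuclear reads in intervals ranged from 1.58 to 15.1 M (mega) per library.

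Stages were taken from the labels. Counts of all 16 libraries were fitted with edgeR 4.0.16 (R 4.3.3, limma 3.58.1; TMM, filterByExpr with a minimum count of 10, quasi-likelihood test), with Benjamini-Hochberg adjustment over 29902 intervals and a threshold of 0.05. DESeq2 1.42.0, other scalings, filters, covariates and left-out libraries were alternatives. Same-strand-product pairs were compared on log2 density with 1 read added, by exact sign-flip tests in Python 3.11.15 (numpy 2.4.6, pandas 2.3.3, scipy 1.17.1, with figures by matplotlib 3.10.9). The procedure was tested on simulated data. Named members were the 20 densest loci, any called member, the 4 members of smallest p on each side of each comparison with naive (2 on each side between stages), and the densest member and the one of smallest F-test p in each list. Others named were chosen after their values were seen. The members and lists were chosen with earlier results of these data known.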

Additional observations from a re-analysis of the deposited data

Results flagged for a closer look

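Single libraries stood apart from the others of their stage, by their gap to the nearest library relative to the stage's range, in 6 of the 96 stage groups examined over 32 members. The groups examined were of naive, presymptomatic and peak libraries, so the onset libraries are not covered. Chance gives about 1 in 20 groups. Mir8098 at the Wdfy2 start had 23.2 in peak replicate 3, against 36.6 to 37.1 in the other peak libraries. Mir7666 at Micu3 had 9.23 in presymptomatic replicate 4, against 24.3 to 27.0 in the others. Mir484 at Marf1 had 21.99 in peak replicate 4, against 10.6 to 12.2 in the others. Mir466q had 3.91 in naive replicate 2, against 1.19 to 1.86, and 5.90 in peak replicate 2, against 0.921 to 1.32. Mir292 had 0.606 in naive replicate 5, against 0 to 0.138 in the other naive libraries. The causes were not tested.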

How the results depend on the processing

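No microRNA interval was called in any comparison under any alternative run, and the smallest adjusted p of a member over them was 0.105 (total count scaling, peak over onset). Under total count scaling the median log2 fold change of members was 0.27 for presymptomatic over naive, 0.64 for onset over naive, 0.30 for onset over presymptomatic, -0.25 for peak over presymptomatic and -0.60 for peak over onset, while the median of all intervals was 0.26, 0.60, 0.34, -0.23 and -0.53 in the same comparisons. With a minimum count of 30, which leaves fewer members tested, it was 0.27 for onset over naive, -0.23 for peak over naive, 0.28 for onset over presymptomatic, -0.17 for peak over presymptomatic and -0.49 for peak over onset. Fitting the 2 groups only gave -0.32 for peak over onset, and the cause was not tested. Leaving out 1 library at a time gave medians of -0.09 to 0.03 for presymptomatic over naive, -0.05 to 0.13 for onset over naive, -0.09 to -0.01 for peak over naive, -0.06 to 0.09 for onset over presymptomatic, -0.06 to 0.06 for peak over presymptomatic and -0.15 to 0.03 for peak over onset. The onset over naive change of Mir9-3 was -0.057 without the 3 libraries of highest receptor share, an alternative chosen after the data were seen, and the cause was not tested. For members with a start, leaving out 1 library gave 0.30 to 0.54 for onset over naive, -0.36 to -0.02 for peak over naive and -0.60 to -0.42 for peak over onset. The densest 20 loci shared 18 with those of naive libraries alone, which also enter the level over all stages. Deviations of same-numbered libraries from their stage means had r from -0.342 to 0.373 (21 pairs, 6 over 0.1). The labels do not say whether equal numbers mark a pair. This check cannot exclude a shared batch, since differently numbered pairs were not compared. With the replicate block, 0 members were called and the medians of the 3 comparisons with naive were 0.04, 0.10 and -0.06. Depth limits the members more than other intervals, since the median member drew 2 to 16 reads per library.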
